A study of Dreissena polymorpha with 10 samples.

Results

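The 41 transcripts described here had their highest season mean in June, the time of spawning, in zebra mussels (Dreissena polymorpha) collected in the field. They were chosen from these arrays by their values. A transcript was kept when its probe was above background on all 4 June arrays and its June mean lay at least 1.5 log2 units above both the February mean and the September mean. Of 3541 sequence accessions on the array, 1465 were above background on all 4 June arrays, and 41 of those met the rule. Because the rule used June against February and June against September, both differences and the calls on them are given as descriptions and not as tests.

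The mussels came from a natural population of Riba-Roja on the Ebro River in Spain and received no treatment, per the labels. RNA from a part of the body was labelled with Cy3, a green fluorescent dye, and hybridised to 1-colour Agilent arrays, 1 sample per array. February (pre-spawning) had 1 female and 1 male array, June (spawning) had 2 female and 2 male arrays, and September (gonad resorption) had 2 female and 2 male arrays. The sources used here do not give the animals' ages or the number of animals per array. The titles and descriptions of the February arrays name opposite sexes, and the sexes below follow the titles. The season means weight both sexes equally, so they do not depend on which February array was female.

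Zebra mussels have separate sexes and release eggs and sperm into the water, where fertilisation takes place. Their gonads spread through the visceral mass, fill with ripening gametes before spawning, empty during it and regress afterwards. The labels do not name the organs in the sampled part. In RNA of several cell types, a change in the share of cells of a type and a change in RNA per cell cannot be told apart. The array names transcripts only by accession, and 0 of 3541 accessions matched the RefSeq gene table of the species. The 41 transcripts are thus given without gene names or roles, and the tissue and sex labels could not be checked against marker genes. No sequences were at hand, so it could not be checked whether some accessions stand for the same RNA. Counts of transcripts may therefore hold repeats.

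Levels are relative log2 signals: the log2 processed intensity minus the 75th percentile of the array's probes that were above background on all 10 arrays. A level of 0 is thus the brightness of a strongly detected probe, and a level of -10 is close to background on most arrays. A difference of 1 on this scale is a doubling. Levels of different probes were not set against each other as amounts of RNA, since probes differ in how strongly they bind.

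Of the 10 arrays, September female 2 was dim: its mean processed signal was 766, and the other 9 had 8138 to 10999, which puts it 10.6-fold below the lowest of the others. On those 9 arrays 3945 to 4920 probes were above background, against 3062 on September female 2. All February and June arrays and 2 September arrays lay on slide 1. September female 2 and September male 2 lay on slides of their own with another scan date. On September female 2 the lowest relative log2 signal above background was -8.32, so many levels of the June-peak transcripts could not be measured on it. Without that array the rule gave 40 members, 39 of them among the 41, and on the 8 arrays of slide 1 it gave 38, 37 of them among the 41.

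The 41 transcripts were detected unevenly outside June. On the February arrays 29 (female) and 35 (male) of 41 were above background, and on every June array all 41 were, as the rule required. In September 29 were above background on female 1, 13 on female 2, 27 on male 1 and 29 on male 2. Only 12 of the 41 were above background on all 10 arrays, and 29 were not on at least 1 array of February or September. For those 29 a fold of June over that season rests in part on signals that were not above background. Such folds are therefore given below both from the measured signals and as a lower bound. For the bound, each array that was not above background counts with its own signal for the probe or with its detection floor (the dimmest probe still above background), whichever is greater. Some probes were not above background at signals over that floor, so these bounds are approximate. With these floors in place, a setting chosen after seeing the data, 35 of the 41 still met the rule. The median level of the 41 was -9.38 and -8.07 on the February female and male arrays. In June it was -5.77 and -6.6 on females 1 and 2, and -5.23 and -5.15 on males 1 and 2. In September it was -9.33 and -9.68 on females 1 and 2, and -9.23 and -9.89 on males 1 and 2. The 4 June medians were thus all above the 6 medians of the other seasons.

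**Figure D1:**
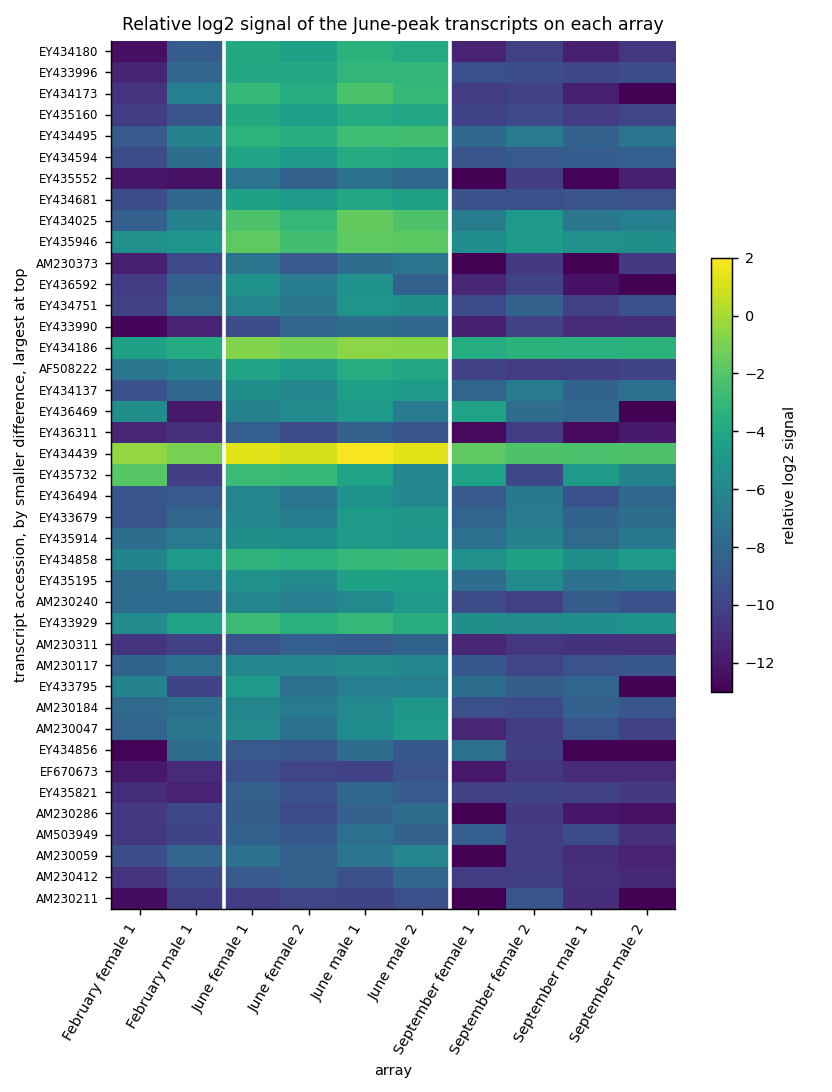
Relative log2 signal of the 41 June-peak transcripts (down the page, ordered by the smaller of their 2 June differences) on the 10 arrays, in season order with females before males. The 4 June columns are brighter than the others in most transcripts, and EY434439 near the middle is the only one with a June mean above 0.

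June exceeded February by 1.51 to 6.65 (median 2.51) among the 41 transcripts, against a median of 0.11 over the 2151 accessions whose brightest probe was tested. June exceeded September by 1.58 to 8.33 (median 3.11), against a median of -0.11 over the same accessions. In 26 of 41 the difference from September was the larger one. The smaller of the 2 differences was 4 or more in 9 transcripts, from 2 to under 4 in 14, and from 1.5 to under 2 in 18. In 31 of 41 transcripts all 4 June arrays lay above all 6 other arrays, where 4% of the 2151 accessions did. The rule itself favours such transcripts, so this excess is no separate result. The limma calls on these contrasts are a description only, since the same contrasts chose the members and so raised their share called. In limma 14 of 41 passed an adjusted p of 0.05 as higher in June than in February (0.992% of 5139 tested probes did). As higher in June than in September 33 passed (6.32% did).

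**Figure D2:**
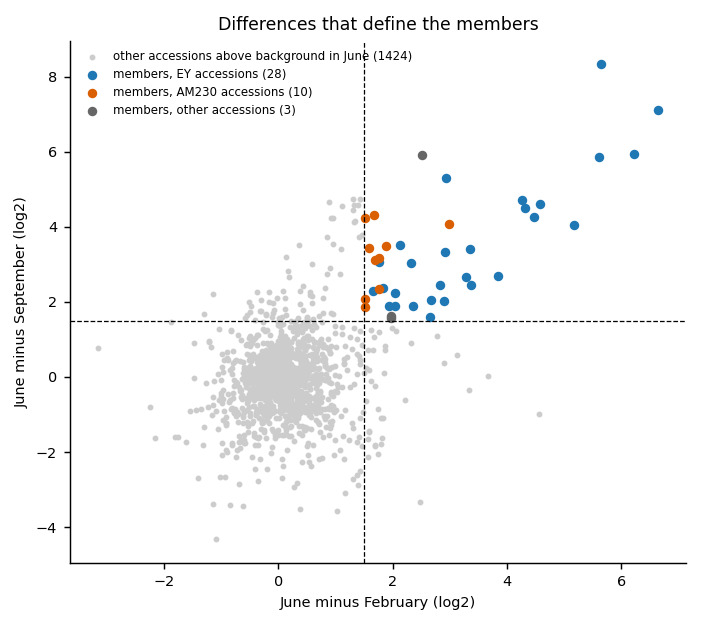
June minus February (horizontal) and June minus September (vertical), both in log2, for the 1465 accessions above background on all 4 June arrays. Coloured points are the 41 members by accession series, and dashed lines mark the difference of 1.5 that each member passes on both axes.

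The transcript with the largest smaller difference was EY434180. Its processed signals as deposited were 8.29 and 121 on the February female and male arrays. They were 2982 and 2037 on the June female arrays and 4690 and 3634 on the June male arrays. In September they were 17.4 and 2.52 in females and 11.4 and 32.9 in males. After scaling, the level was -3.86 ± 0.42 in June (SD, n = 4), against -10.51 ± 2.64 in February (SD, n = 2) and -10.98 ± 0.72 in September (SD, n = 4). By the measured signals June stood 101-fold above February and 140-fold above September, but only 1 of 2 February and 1 of 4 September arrays were above background. The bounds were at least 61.3-fold over February and at least 78.5-fold over September. When 1 February array was left out, June was compared with February only in the sex that kept its February array. In females alone the log2 difference of June over February was 8.25, and in males alone it was 5.05, against 6.65 with both. The value for females rests on the February array titled female, where the transcript was not above background. Such differences, here and below, use measured signals, take the sexes from the titles and rest on 1 February array each. With the sexes of the descriptions they would differ, and those values were not computed.

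EY433996 followed with levels of -11.46 and -8.07 in February, -3.92, -3.97, -3.15 and -3.15 in June (females first), and -9.35, -9.39, -9.76 and -9.45 in September. By the measured signals June was 74.6-fold above February, where 1 of 2 arrays was above background, and 61.4-fold above September, where 3 of 4 were. The bounds were at least 62.5-fold and at least 51-fold. The 4 September arrays lay close together, while the 2 February arrays were far apart. The log2 difference of June over February was 7.52 in females alone and 4.92 in males alone. The February array titled female was the one not above background, so the value for females rests on that signal.

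EY434173 was next. Its levels were -10.71 and -6.55 in February, -2.99, -3.73, -2.25 and -2.99 in June, and -10.32, -10.04, -11.7 and -13.22 in September. June was 50-fold above February both by the measured signals and by the bound, with 1 of 2 arrays above background. The array titled female, at -10.71, was not above background but lay above its floor of -10.95. Over September, with 1 of 4 arrays above background, June was at least 143-fold higher, and the measured signals gave 322-fold. The log2 difference of June over February was 7.35 in females alone and 3.93 in males alone. The value for females rests on the February array that was not above background.

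EY435160 was steadier. Its levels were -10.38 and -9.05 in February, -3.88, -4.67, -3.79 and -4.1 in June, and -10, -9.68, -10.35 and -9.89 in September. That placed June 48.8-fold above February, with both arrays above background, and 58.5-fold above September, with 3 of 4 above background and a bound of at least 46.2-fold. EY434495, detected on all 10 arrays, had -8.82 and -6.35 in February, -3.29, -3.56, -2.63 and -2.54 in June, and -7.98, -6.9, -8.34 and -7.18 in September. Its fold in June was 24 over February and 24.2 over September. In log2, June over February was 6.11 in females alone and 5.11 in males alone for EY435160. For EY434495 it was 5.4 in females and 3.77 in males.

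EY434594 and EY434681 were each detected in February on both arrays and in September on 3 of 4. EY434594 averaged -4.22 ± 0.43 in June (SD, n = 4), 20-fold above February and 22.7-fold above September, with a bound of at least 21.1-fold for September. EY434681 averaged -4.45 ± 0.38 in June (SD, n = 4), 19.2-fold above February and 26.5-fold above September, with a bound of at least 22.3-fold for September. In log2, June over February was 4.99 in females alone and 3.64 in males alone for EY434594. For EY434681 it was 4.78 in females and 3.74 in males. In each of these transcripts the 4 June arrays were separated from all other arrays. EY435552 was above background only in June, with levels of -7.3, -8.27, -7.38 and -7.94 on the 4 June arrays. Its June level was at least 8.84-fold above February and at least 6.05-fold above September.

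The brightest probe in June was that of EY434439. Its levels were -0.41 and -1.05 in February, 1.34 and 1.02 in June females and 1.84 and 1.41 in June males, and -1.74, -2.17, -2.31 and -2.18 in September. June was 4.38-fold above February and 11.4-fold above September, and the 3 seasons did not overlap. In processed signal, before scaling, this was 86646 to 173966 in June, against 33314 and 23461 in February.

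EY434186, EY435946 and EY434025 had the next brightest June signals and were above background on all 10 arrays. EY434186 averaged -0.81 ± 0.22 in June (SD, n = 4), 9.71-fold above February and 6.36-fold above September. EY435946 averaged -1.94 ± 0.4 in June (SD, n = 4), 10.3-fold above February and 10.7-fold above September. EY434025 had -8.38 and -6.43 in February, -2.21, -3, -1.58 and -2.18 in June, and -6.7, -4.87, -7.04 and -6.52 in September. For each of the 3, every June array was brighter than every array of the other seasons. The remaining members detected on all 10 arrays were EY434137, EY436494, EY433679, EY435914, EY434858, EY435195 and EY433929, named here after their values were seen.

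At the dim end, 5 transcripts were above background on no February array and 7 on no September array, 9 in all, since EY435552, EY433990 and EY436311 belonged to both groups. EY433990 was at least 5.96-fold above February and at least 3.92-fold above September in June. For EY436311 the June bounds were 4.02-fold over February and 2.75-fold over September. Against February alone, the June bound was 4.82-fold for EY435821 and 2.38-fold for EF670673. Against September alone it was 14.8-fold for EY436592, 8.46-fold for AM230059, 3.42-fold for AM230286 and 1.39-fold for AM230211. For these 9 transcripts no array of that season gave a level, so the fold is known only as a lower limit, and for AM230211 that limit is small.

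At the threshold, the members just inside were AM230059 and AM230412 (smaller difference 1.52 each) and AM230211 (1.51). The accessions just outside were AM230321 (1.47), AM230056 (1.43) and AM230049 (1.41). The fall-off across the threshold was gradual, and 9 of the first 10 accessions outside it belonged to the AM230 series as well. AM230321 was 3.79 higher and AM230056 4.75 higher in June than in September, so both were left out by the February difference.

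By accession, 28 members belonged to the EY series, 10 to the AM230 series, and AM503949, AF508222 and EF670673 stood alone. Members made up 9.09% of the 110 AM230 accessions above background in June and 2.37% of the 1182 EY accessions. A series here is a group of accessions with the same leading characters, not a known set of submissions. The AM230 numbers run on from accessions that start with AM229, which gave no members, so the 9.09% depends on where that run is cut. EY members had median levels of -8.61, -4.76 and -8.55 in February, June and September. AM230 members had -9.44, -7.47 and -10.83 in the same order. The AM230 members were thus closer to February (median June difference 1.68) than to September (3.3), whereas for the EY members the medians were 2.92 and 3.05.

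In 10 of 41 transcripts at least 1 array of another season reached into the June range. They are named here after their values were seen. EY435732 had -1.89 on the February female array and -10.3 on the February male array, so the female array was above all June arrays, which had -2.78 and -2.93 in females and -4.37 and -6.08 in males. Its September levels were -4.32 and -9.75 in females and -4.8 and -6.3 in males. The processed signal behind the 2 February values was 11894 and 38.4. Its June peak is a property of season means that average very unlike arrays.

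EY436469 had a similar February split, -5.56 on the female and -11.96 on the male array. Its 4 June arrays (-6.38, -5.75, -4.82 and -6.76) all lay below September female 1 (-4.36). EY433795 had -4.94 and -7.44 in June females and -6.56 and -6.55 in June males, against -6.3 on the February female array. EY434856 had -8.81, -9.12, -7.64 and -8.84 in June, against -7.49 on September female 1. In EY435732, EY436469 and EY434856 the highest single array was thus not a June array, and the same held for AM230211, at -9.31 on its highest June array, against -9.06 on September female 2.

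The other 6 overlapped by little or in levels near background. AM503949 had a lowest June array of -8.91, against -8.5 on September female 1. For EY436494 and EY435195 the lowest June arrays were -7.15 and -5.86, against -7.02 and -5.85 on September female 2, the dim array. The highest other array of AM230211 was also September female 2, where it was not above background. For AM230047 and AM230059 the lowest June arrays were -7.42 and -8.28, against -7.08 and -8.12 on the February male array.

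Whether the peak is a property of the transcript or of 1 probe was looked at with the other probes of the same accessions, which the rule did not use but which measured the same RNA on the same arrays. Of the 41 accessions, 28 had at least 1 other tested probe, 63 probes in all. Of the 63, 60 (95.2%) were higher in June than in both other seasons and 51 (81%) were higher by 1.5 or more in both. Among the 2988 tested probes that were not the brightest of their accession, these shares were 28.4% and 2.88%. A further 68 other probes of these accessions were not above background on 2 arrays and were not tested. A probe could pass that filter on June arrays alone, and the 2988 probes were not limited to accessions above background in June. The shares are thus not like for like. When the rule was applied to the second brightest probe of every accession instead, 30 accessions met it, of which 20 were among the 41 (48.8% of the 41, 66.7% of the 30). Not every probe showed the June difference. The other probe of EY436311 had a smaller difference of -0.28, those of AM230240 had -0.6 and 0.23, and those of EY434186 ranged from -1.11 to 2.6. The remaining 13 accessions had no other tested probe.

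**Figure D3:**
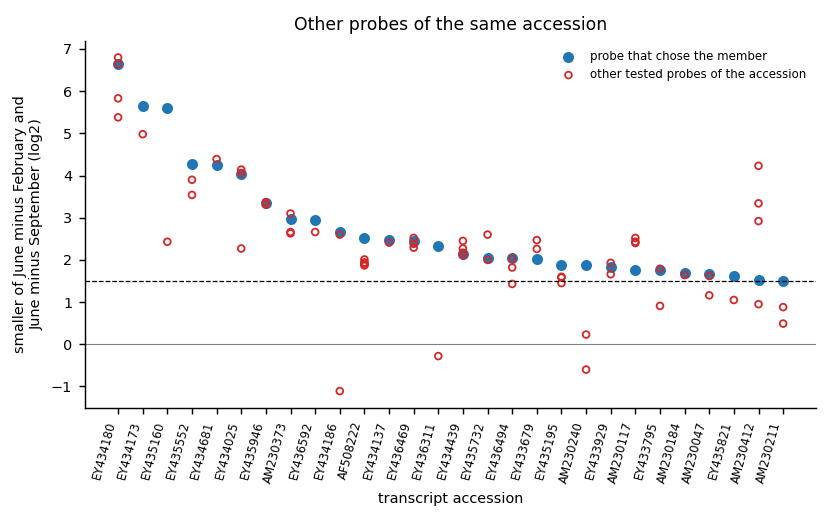
Smaller of June minus February and June minus September (log2) for the probe that chose the member (filled) and for the other tested probes of the same accession (open), for the 28 members that have any. The dashed line marks 1.5, and 51 of the 63 open points lie at or above it.

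Sex was not used by the rule, so females were tested against males. In June no member passed an adjusted p of 0.05 (limma, Benjamini-Hochberg over 5139 probes), and neither did any other probe (0% called). At an unadjusted p under 0.05 there were 2 members (4.88%), against 258 probes (5.02%) in the whole table, and the smallest adjusted p of a member was 0.756. The direction was uneven all the same: 35 of 41 were lower in June females than in June males (median -0.6, range -1.38 to 2.37), where 53% of 2151 accessions were lower (median -0.04). With 2 arrays per sex, the members were measured on the same 4 arrays and their common direction counts as 1 observation.

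Array by array, June female 2 was the lowest of the 4 June arrays in 32 of 41 members, against 23% of accessions. June male 1 was the highest in 23 (17.5% of accessions) and June male 2 in 13 (33.9%). Relative to the June mean of each transcript, the members' medians were -0.06 and -0.56 on females 1 and 2 and 0.4 and 0.15 on males 1 and 2. Both female arrays were below both male arrays in 24 members (16.2% of accessions), and both were above them in 1 (19.9%). Without June female 2 the median difference was -0.36, with 31 of 41 lower in females, where 57.7% of accessions were lower. Without June male 1 it was -0.44, with 34 of 41 lower, where 55.8% of accessions were lower.

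Among the members, the highest June male array differed between the accession series. June male 1 was the highest June array in 20 of 28 EY members (17.5% of all accessions), and June male 2 in 9 of 10 AM230 members (33.9%). Shares over all accessions of each series were not taken for these counts. Among accessions above background in June, 62.7% of AM230 and 48.4% of EY were lower in June females. The EY members' medians relative to the June mean were 0.47 on male 1 and 0.06 on male 2. Those of the AM230 members were 0.09 and 0.74. Whether this split is particular to the members was not tested, and some of these accessions may measure the same RNA.

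**Figure D4:**
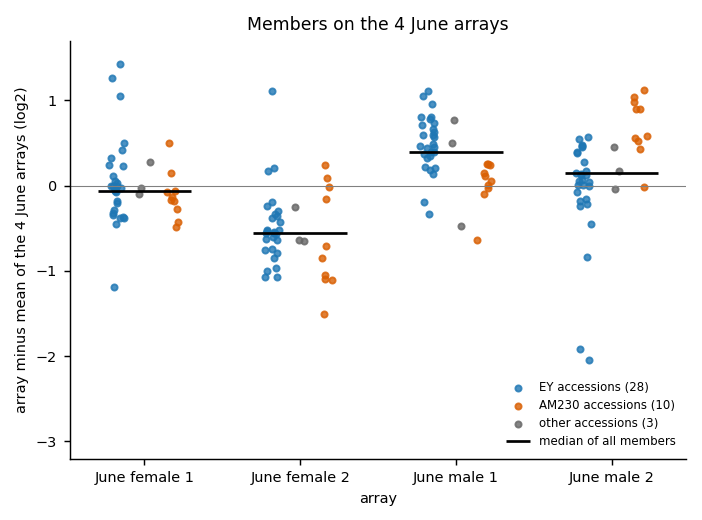
Level on each June array minus the mean of the 4 June arrays (log2) for the 41 members, coloured by accession series, with the median of all members as a black line. The line is at -0.06 and -0.56 for females 1 and 2 and at 0.4 and 0.15 for males 1 and 2, and AM230 members lie highest on male 2.

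The most negative female minus male differences in June were those of EY433679, AM230047 and EY434751. EY433679 had -6.03 and -6.65 in June females, against -4.84 and -5.08 in June males, a log2 difference of -1.38 ± 0.539 (SE, limma adjusted p = 0.977). AM230047 differed by -1.36 ± 0.721 and EY434751 by -1.25 ± 0.607 (SE, limma adjusted p = 0.997 for each). In EY433679 and EY434751 the sexes did not overlap, and in AM230047 they did not either, at -5.77 and -7.42 in females against -5.68 and -4.8 in males. EY433996 had the smallest p, with -3.92 and -3.97 in females against -3.15 and -3.15 in males (log2 difference -0.79 ± 0.252, SE, limma adjusted p = 0.756).

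In the opposite direction stood EY435732, EY436592 and EY433795. EY435732 differed by 2.37 ± 1.77 (SE, limma adjusted p = 0.997), and it was the single member with both female arrays above both male arrays. EY436592 had -5.38 and -6.62 in June females, against -5.37 and -8.34 in June males (log2 difference 0.85 ± 1.11, SE, limma adjusted p = 0.997). The difference of EY433795 was 0.37 ± 1.81 (SE, limma adjusted p = 0.997). The last 2 signs rest on 1 array each: without June male 2 EY436592 was at -0.63, and without June female 1 EY433795 was at -0.88. The 4 June arrays spanned 0.41 to 3.29 in the 41 members (median 1.22), and EY435732, EY436592 and EY433795 were among the 5 that spanned more than 2.

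Over June and September together no member and no probe was called between the sexes (0%), with 4 members at an unadjusted p under 0.05 (9.76%, against 5.08% of probes, limma). In September alone none was called either (0%), with 2 members at an unadjusted p under 0.05 (4.88%, against 3.85% of probes). There 27 of 41 were higher in females (median 0.32), against 55.4% of accessions. Between September female 1 and September male 1, the pair on slide 1, 23 of 41 were higher in the female (median 0.1), and without September female 2 only 16 of 41 were higher in females (median -0.14). Among the 12 members above background on all September arrays, 10 were higher in females (median 0.36). The September direction thus changed with the dim array.

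The change of the sex difference from June to September was tested as an interaction. No member and no probe was called (0%), with 3 members at an unadjusted p under 0.05 (7.32%, against 4.61% of probes, limma). The smallest adjusted p of a member was 0.949. In 37 of 41 the female minus male difference was larger in September than in June (median 0.82), against 54.5% of accessions (median 0.08). Without September female 2 it was larger in September in 30 of 41 (median 0.4).

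By the measured signals, the 2 February arrays differed more in the members than in other transcripts. The array titled male was above the array titled female in 35 of 41 members, where this held for 46.2% of accessions, with a median male minus female difference of 1.02, against -0.06 over accessions. In 5 of the 7 members whose arrays lay at least 3 apart, 1 of the 2 arrays was not above background, so the difference is a bound. It was at least 4.16 for EY434173, 3.3 for EY434856, 2.87 for EY433996 and 2.31 for EY434180 in favour of the array titled male, and for EY436469 it was -5.22 or further from 0. With both arrays above background, it was -8.41 for EY435732 and -3.68 for EY433795. The median SD over the February arrays was 0.89 for the members, against 0.32 for accessions. The accessions were not matched to the members in level, and only 28 of the 41 were above background on both February arrays. The rule used the mean of these 2 arrays, and 1 low array can bring that mean down. The wider gap among the members is thus no separate result. Their common direction was measured on the same 2 arrays and counts as 1 observation. June lay 1.5 or more above the February female array in 38 members and above the February male array in 30. With 1 array of each sex, and with titles and descriptions at odds, sex and animal cannot be told apart here.

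September was tested against February, which the rule set apart from June but not from each other. Of 41 members, 3 were called, all lower in September (limma, adjusted p under 0.05), or 7.32%, against 7.34% of 5139 tested probes called in either direction and 2.51% called as lower. At an unadjusted p under 0.05 there were 10 members (24.4%), against 25.4% of probes. Together 26 members were lower and 15 higher in September (median -0.35), where 61.3% of accessions were higher (median 0.25). The share of members called was close to that of all probes, and the direction of the others depended on the scaling: 34 of 41 were lower with the percentile taken over all probes, and 11 of 41 with normexp background correction. Without the February male array only females were compared, and 15 of 41 were lower. With signals not above background raised to the detection floor, 19 of 41 were lower.

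AF508222 was the clearest of the 3. It had -10.08 and -10.31 in September females and -10.23 and -9.93 in September males, against -7.08 and -6.39 on the February female and male arrays. The log2 difference was -3.41 ± 0.291 (SE, limma adjusted p = 0.0155). September female 2 was not above background, and with it at its floor the difference was -2.91. The seasons were far apart, and June was higher than both, at -4.25, -4.88, -3.73 and -4.05. Over 22 alternatives the difference ran from -4.17 to -1.03 and the adjusted p from 0.00229 to 0.648, and it was called in 10. The call was lost when either February array, either June male array or either September male array was left out. Differences were then -3.69 to -3.12, where -3.69 is of males only and -3.12 of females only.

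EY434439 had -1.74 and -2.17 in September females and -2.31 and -2.18 in September males, against -0.41 and -1.05 in February, a log2 difference of -1.38 ± 0.272 (SE, limma adjusted p = 0.0435). It was called in 4 of 22 alternatives, with differences from -1.85 to -1.2 and adjusted p from 0.0287 to 0.494, and leaving out any array other than September female 1 ended the call. EY434173 differed by -2.69 ± 0.522 (SE, limma adjusted p = 0.0422), but only 1 of 4 September arrays and 1 of 2 February arrays were above background. With the others raised to their floors the difference was -1.52. It was called in 4 of 22 alternatives, with adjusted p from 0.0292 to 0.796. Leaving out any single array ended its call. With 1 mean per season and sex, the gap between the 2 February arrays (-10.71 and -6.55) adds nothing to the SE. In the additive model of season and sex, where that gap counts, the limma adjusted p was 0.222. Without the February male array only females were compared, and among them the difference was 0.53.

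By the measured signals all 10 AM230 members were lower in September than in February (median -1.41), although none was called. None of the 10 was above background on all 4 September arrays, and 3 were on none of them. With signals not above background raised to the detection floor, 6 of 10 were lower (median -0.6), so part of the shift lies among signals that were not above background. Among all AM230 accessions above background in June 52.7% were lower. The 10 stayed lower with the percentile over all probes, with quantile normalization and in the authors' values, while 4 of 10 were lower with normexp. Without the February male array, with only females compared, 8 of 10 were lower. Of the EY members 15 of 28 were lower (median -0.04). Among members detected on all 10 arrays, EY434025 was 1.12 higher in September than in February and was not called. The smallest adjusted p of an AM230 member was 0.0633, for AM230047, which was above background on 2 of 4 September arrays.

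**Figure D5:**
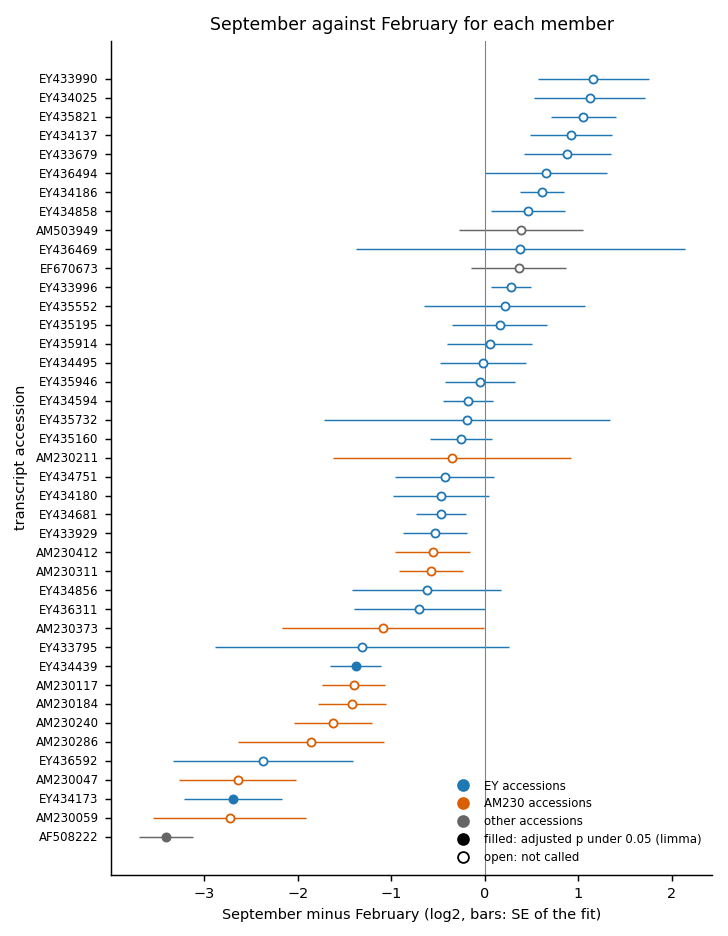
September minus February (log2, with the SE of the fit) for the 41 members, ordered by size and coloured by accession series, from measured signals that include arrays not above background. Filled points are the 3 called members, AF508222, EY434173 and EY434439, and all AM230 points lie left of 0.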

How the data were processed

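Relative transcript levels of zebra mussels were measured on 10 arrays. The authors read spot intensity values from the scans (processed signal, corrected for background within the array); the file headers name Feature Extraction 10.5.1.1. A second deposited table, of log2 values by the authors, has a scaling and centring between arrays that are not given in the sources used here. Its columns correlated at 0.988 or more with the matching processed signals on the log2 scale and had medians of 2.71 to 2.98. It was used as an alternative.

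The 536 control spots were left out, and 15208 spots of 13654 probes remained. Log2 signals were averaged per probe and scaled to each array's 75th percentile over the 2738 probes well above background on all 10 arrays. Each accession was represented by the probe of highest mean. For tests, flagged spots were left out where another spot remained, which moved no member's value by more than 0.0052. No member had a flagged spot, and no spot was saturated. The 5139 probes above background on at least 2 arrays were fitted in R 4.3.3 by limma 3.58.1. The model had 6 season-by-sex means, 4 residual and 1.647 prior degrees of freedom, and Benjamini-Hochberg adjustment over all of them. February, with 1 array per sex, was assumed to vary like the other groups. The design calls the replicates biological, but it does not say how many animals were pooled. The number of arrays limits the precision. The fit was tested on simulated data.

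The members, the tests and the naming rule were chosen with earlier results of these data known. Named are the 8 members with the largest smaller difference, the 4 highest in June, the 3 on each side of the threshold, the 3 most positive and 3 most negative sex differences in June, and every member called. The planned gene lists, marker lists and sequence features could not be used, since the files pair no accession with a gene name or a sequence. Plots were made in Python 3.11.15 (matplotlib 3.10.9). Alternatives covered scaling, background correction, filters, batch, model and single arrays. Normexp was run on the median signal, because the files hold no mean signal column.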

Additional observations from a re-analysis of the deposited data

Results flagged for a closer look

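Among the 22 named members, 4 values stood apart from the other 3 arrays of their season by Dixon's criterion, out of 44 season groups of 4 arrays tested. Chance alone flags about 1 group in 20. EY435946 was lowest in June on female 2 (-2.55, against -1.8 to -1.7 on the others) and highest in September on female 2 (-4.74, against -5.62 to -5.48), the dim array. EY434186 was lowest in September on female 1 (-3.74, against -3.43 to -3.37). EY433795 was lowest in September on male 2 (-13.51, against -8.58 to -7.58), a level that was not above background.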

How the results depend on the processing

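The rule gave 41 members, and 30 to 43 under 7 of the settings tried other than leaving out an array. The 30, from the second brightest probe, held 20 of the 41, so 21 dropped out and 10 others entered. It gave 19 with normexp background correction, 65 at a difference of 1 and 23 at a difference of 2. Leaving out 1 array gave 33 to 50. The numbers were 33 without the February female array and 50 without the February male array or June female 2. In all 10 of these settings 23 members were kept, and 9 members in all 20 alternatives. No sex comparison called a member under any alternative. In June 31 to 37 members were lower in females, with a median of -0.82 to -0.36, a count added after seeing the data. The 3 members called between September and February became 1 with the percentile over all probes, 0 with normexp, 5 with a filter of 4 arrays, 0 with no filter, 7 in an additive model, 0 with slide or scan date as a block, and 1 with array weights. Leaving out 1 array gave 0 to 3. The count lower in September, added after seeing the data, was 26. It was 11 with normexp and 15 to 31 with 1 array left out. The 15 (without the February male array) compared only females, and the 31 (without the February female array) only males. The replicate numbers were not used as pairs in the main fit. Same-numbered arrays had correlations of -0.327 to 0.342 over 6 pairs of groups. With 2 arrays per group these cannot decide whether the samples were paired. With replicate as a block, 0 members were called between September and February. With single arrays left out, the sign between the June sexes turned for EY436592 (-0.63 to 2.33, negative without June male 2). The same held for EY433795 (-0.88 to 1.62, negative without June female 1). For EY434173, September against February ran from -5.91 (males only, no February female array) to 0.53 (females only, no February male array). The causes were not tested. Signal limits what can be said of the 29 members with at least 1 February or September array not above background, most of all the 9 with a whole season so, and on September female 2, where 13 of 41 were detected, low levels are bounds.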
